A study of Mus musculus with 238 samples.

Results

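Gene expression was examined in the anterior hippocampus of old mice that had received plasma of young mice. The libraries were those whose labels name the anterior hippocampus and a treatment of the plasma experiment, and they were 7 of the 238 libraries of the series. Of the 7 male C57BL/6JN mice, all 19 months old, 3 had been injected behind the eye (retro-orbitally) with young mouse plasma (YMP; mice 73, 77 and 81). The other 4 had been injected by the same route with phosphate-buffered saline (PBS; mice 72, 76, 80 and 84). The labels give no transgene or other genetic change in either group. They give neither the number of injections nor the time from the last injection to sampling, and no group was given plasma of mice of another age. The same mice gave libraries of 14 other brain regions, and the series also holds a diet experiment on female mice of the same strain and age, of which the freely fed mice (AL, ad libitum) are used here only to show in which region a gene is high. Each mouse gave 1 library of the anterior hippocampus, so n is 3 against 4 throughout.

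The hippocampus is a folded sheet of pyramidal neurons (the CA fields) and granule neurons (the dentate gyrus), and it is needed to form memories of events and places. Fibre tracts made of axons wrapped in myelin, the membrane that oligodendrocytes lay down, run over its surface, and the thalamus lies beneath it. Firing neurons switch on immediate early genes within minutes, many of them through the transcription factor CREB, and this response is tied to the strengthening of synapses. Blood-borne factors of young animals have been studied for what they do to these neurons in old animals.

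Counting all genes, PBS mouse 80 had the smallest library (1.96 M, mega, counts) and the others held between 4.56 and 14.5 M. Mitochondrial genes took 1.95% to 2.62% of the counts. The labelled tissue was checked on markers of hippocampal neurons, on plain library totals. Of the dentate granule neuron markers, C1ql2 lay between 168 and 327 CPM (counts per M counts of the library) in the 7 libraries. Its highest median in any region outside the hippocampus was 21.5 CPM, in the hypothalamus. Lct lay between 38.5 and 84.1 CPM against a highest median of 1.70 CPM elsewhere, and Dsp between 16.9 and 38.3 CPM against 2.42 CPM. Prox1 was less specific, at 125 to 215 CPM against a median of 128 CPM in the thalamus. The CA1 neuron markers Wfs1 and Fibcd1 had medians of 116 and 69.1 CPM. Their highest medians elsewhere were above these, at 246 CPM in the entorhinal cortex and 86.6 CPM in the choroid plexus. Correlations of log2 CPM between libraries were 0.942 to 0.986 within a treatment and 0.942 to 0.987 between treatments. The first principal component held 52.6% of the variance and did not separate the treatments: PBS mice 72 and 84 lay at one end, and PBS mouse 76 lay beside YMP mouse 77 at the other. Neither a batch nor the time of day is given by the labels, and both went unexamined. CPM values of different genes depend on transcript length and are compared here only between libraries.

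The comparison asked which genes young plasma changes in this tissue. No gene passed the test. Of 13709 genes tested with edgeR, 0 were called at an adjusted p under 0.05 (0% of those tested), and the smallest adjusted p was 0.683. DESeq2 also called 0 genes, with a smallest adjusted p of 0.203. At an unadjusted p under 0.05, edgeR gave 976 genes (7.12%), of which 707 were lower (5.16%) and 269 higher (1.96%) in YMP. The YMP libraries lay wholly below the PBS libraries for 462 genes (3.37%) and wholly above them for 368 (2.68%). The median log2 change of all tested genes was -0.0022, and 50.4% of them were below 0. The number of genes at an unadjusted p under 0.05 rested on single mice: it was 2761 without PBS mouse 76, 471 without PBS mouse 72, 527 without PBS mouse 84, 482 without YMP mouse 73 and 468 without YMP mouse 77. All changes below are therefore described by their size, standard error (SE) and unadjusted p, and none of them passed the correction.

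**Figure D1:**
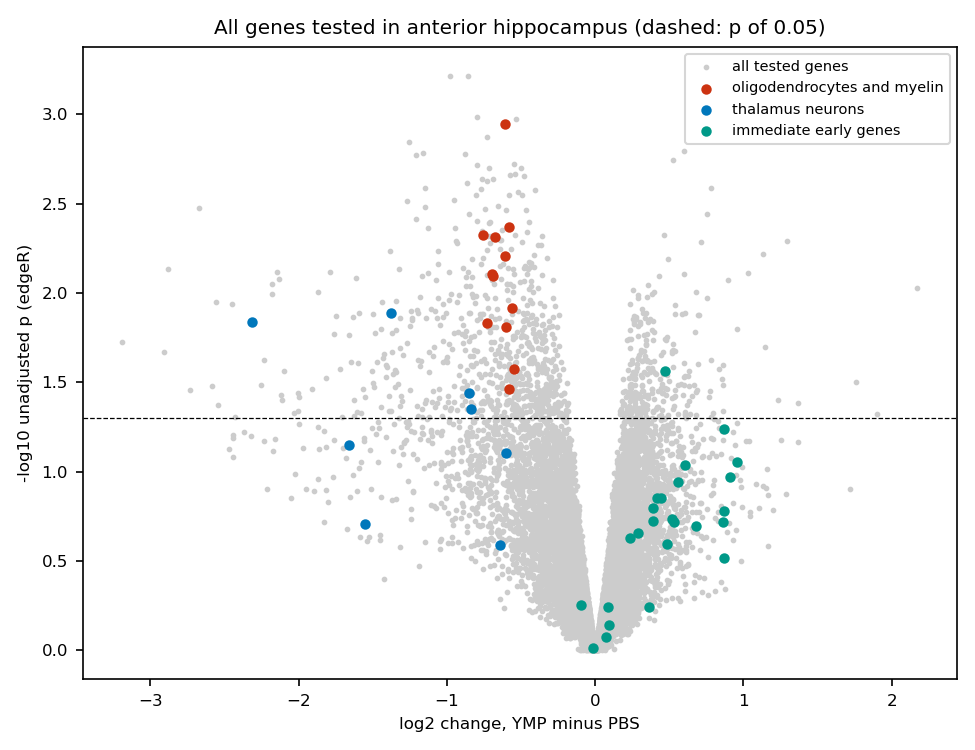
Each point is a gene tested in the anterior hippocampus, with the log2 change of YMP minus PBS on the x axis and the negative log10 of the unadjusted edgeR p on the y axis; coloured points are members of the named gene lists and the dashed line marks a p of 0.05. All 12 oligodendrocyte and myelin genes lie left of 0 and above the line, while most immediate early genes lie right of 0 and below it.

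More members of the oligodendrocyte and myelin list than of any of the other lists differed at an unadjusted p under 0.05. All 12 genes reported from this list were lower, by a median of 0.61 on the log2 scale (median -0.61, range -0.76 to -0.54). Each of the 12 had an unadjusted p under 0.05, against 5.16% of all tested genes in that direction, and for 7 of the 12 the YMP libraries lay wholly below the PBS libraries, against 3.37% of all genes. Summed over the 12 genes, the level was 12434, 9516, 6485 and 9617 CPM in PBS mice 72, 76, 80 and 84, and 5909.5, 5652 and 6332 CPM in YMP mice 73, 77 and 81. The PBS mice varied over a wide range and the 3 YMP mice lay close together just below the lowest of them, mouse 80. The YMP mean was 5965 ± 343 CPM (SD, n = 3) and the PBS mean 9513 ± 2429.8 CPM (SD, n = 4), a ratio of PBS over YMP of 1.59. Bulk RNA cannot tell fewer cells of a type from less RNA per cell.

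Among the structural proteins of myelin, Mbp (myelin basic protein, which holds the inner faces of the membrane together) stood at 7347, 5974, 3881 and 6118 CPM in PBS mice 72, 76, 80 and 84 and at 3683, 3402 and 3779 CPM in YMP mice 73, 77 and 81. The groups did not overlap, and the gap to PBS mouse 80 was small. Its log2 change was -0.69 ± 0.20 (SE), with an unadjusted p of 0.00803. Mobp, a small basic protein of the same membrane, was at 2224, 1462, 997 and 1411 CPM in PBS and 863, 892 and 1009 CPM in YMP. Here YMP mouse 81 passed PBS mouse 80, so the groups overlapped, with a log2 change of -0.73 ± 0.24 (SE).

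Genes at the contacts of the sheath were also lower. Mag (myelin-associated glycoprotein, at the contact with the axon; chr7:30899175-30914922) was at 366, 243, 194 and 233 CPM in PBS mice and 145, 147 and 169 CPM in YMP mice, a log2 change of -0.76 ± 0.20 (SE) with an unadjusted p of 0.00473. Its groups did not overlap, and its log2 change was the lowest of the list. Cldn11, which seals the layers of the sheath, overlapped through PBS mouse 80 (172 CPM) and YMP mouse 81 (173 CPM), with a log2 change of -0.61 ± 0.17 (SE).

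The enzymes of myelin lipids showed the same direction. Ugt8a (chr3:125865272-125938682) makes galactosylceramide, a lipid that myelin holds in large amounts. It was at 145, 113, 103 and 122 CPM in PBS mice 72, 76, 80 and 84 and at 75.2, 75.6 and 87.9 CPM in YMP mice 73, 77 and 81. All 3 YMP mice lay below all 4 PBS mice, and the log2 change was -0.61 ± 0.13 (SE) with an unadjusted p of 0.00114, the smallest of the list. Aspa, which splits acetylaspartate in oligodendrocytes, had a log2 change of -0.54 ± 0.20 (SE), and its groups overlapped. Of the other members, Cnp, Ermn, Opalin and Mog did not overlap between the groups, while Mal and Tspan2 did, in each case through the high YMP mouse 81 and the low PBS mouse 80.

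**Figure D2:**
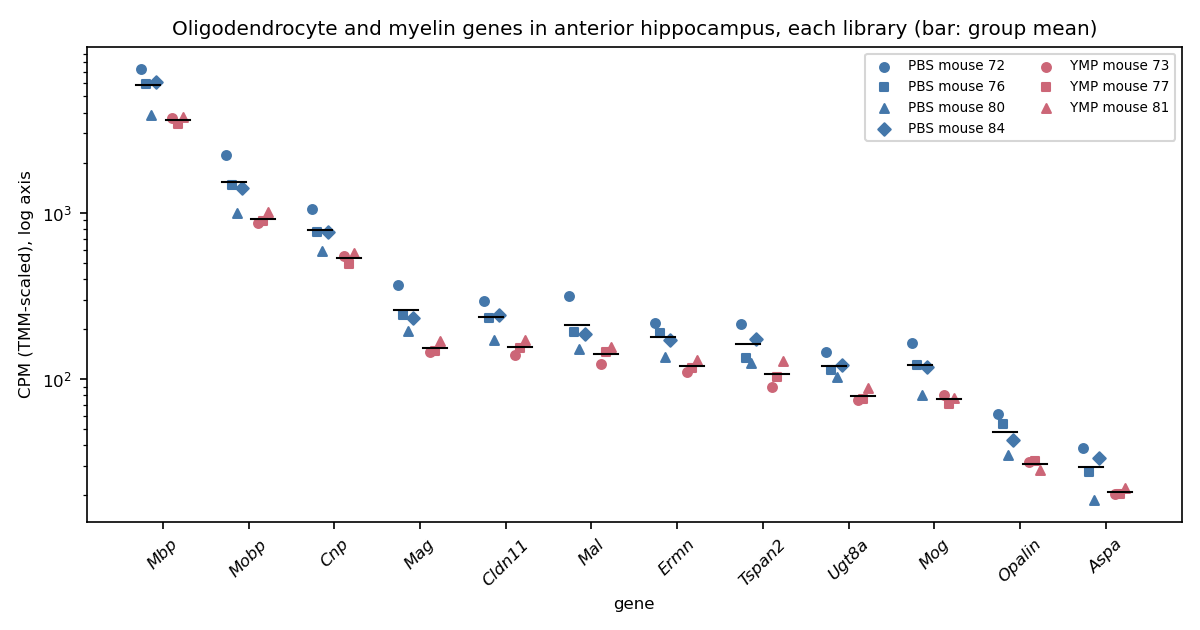
CPM of the 12 oligodendrocyte and myelin genes (x axis) in each of the 7 libraries on a log axis (y axis); colours are the treatments, marker shapes the mice and bars the group means. The YMP points lie together below most PBS points, and PBS mouse 80 is the nearest PBS library for most genes.

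The promoters of these genes were read because the members lay in 1 direction and because SOX10, a transcription factor of the oligodendrocyte lineage, binds a short motif shared by the SOX family. A script searched each RefSeq window (assembly GRCm38.p6, from 250 bases before to 50 after the start of transcription) for ACAAAG on the gene's strand and for its reverse complement CTTTGT. Windows were found for 11 of the 12 genes, and Mbp had no entry. The motif was in at least 1 window of 5 of the 11 genes (45.5%), against 21.0% of 27025 genes and 18.7% of 32851 windows in the table. The 5 were Cnp, Mag, Mobp, Opalin and Tspan2. A match describes the letters only and is not a binding site. The windows of 4 members are printed 5′ to 3′ on the gene's strand, with matches in capitals, to show the range from 0 to 6 matches: Ugt8a (chr3:125938603-125938902, minus strand) had 0, Cnp (chr11:100574689-100574988, plus strand) 1, Opalin (chr19:41077064-41077363, minus strand) 2 and Mobp (chr9:120149492-120149791, plus strand) 6.
Ugt8a: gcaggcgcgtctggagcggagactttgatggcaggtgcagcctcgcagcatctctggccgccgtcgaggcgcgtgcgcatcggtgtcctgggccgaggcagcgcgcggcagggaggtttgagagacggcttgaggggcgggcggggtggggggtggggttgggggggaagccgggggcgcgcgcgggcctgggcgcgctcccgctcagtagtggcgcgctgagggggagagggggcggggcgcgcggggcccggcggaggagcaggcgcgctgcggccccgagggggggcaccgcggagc
Cnp: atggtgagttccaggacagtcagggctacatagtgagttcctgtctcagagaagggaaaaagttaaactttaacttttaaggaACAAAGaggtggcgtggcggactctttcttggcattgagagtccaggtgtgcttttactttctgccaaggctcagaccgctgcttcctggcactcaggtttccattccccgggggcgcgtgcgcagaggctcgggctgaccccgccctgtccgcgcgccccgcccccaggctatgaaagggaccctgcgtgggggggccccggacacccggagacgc
Mobp: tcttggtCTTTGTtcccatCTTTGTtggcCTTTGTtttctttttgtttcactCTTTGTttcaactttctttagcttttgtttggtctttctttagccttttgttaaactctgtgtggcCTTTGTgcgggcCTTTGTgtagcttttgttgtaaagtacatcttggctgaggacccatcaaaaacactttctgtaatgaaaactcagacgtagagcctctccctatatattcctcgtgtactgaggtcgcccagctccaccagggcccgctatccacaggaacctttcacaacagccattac
Opalin: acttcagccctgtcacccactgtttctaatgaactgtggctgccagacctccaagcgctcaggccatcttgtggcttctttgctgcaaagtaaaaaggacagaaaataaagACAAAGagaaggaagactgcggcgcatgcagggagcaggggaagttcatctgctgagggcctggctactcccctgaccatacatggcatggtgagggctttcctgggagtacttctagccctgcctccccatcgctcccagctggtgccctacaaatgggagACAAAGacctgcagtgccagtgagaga
The log2 change was -0.61 for Ugt8a, -0.56 for Cnp, -0.67 for Opalin and -0.73 for Mobp, with SEs of 0.13 to 0.24, so these 4 genes cannot be placed in order.

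Sox10 itself was at 85.1, 74.5, 54.0 and 69.4 CPM in PBS mice and 49.8, 41.3 and 50.5 CPM in YMP mice. The groups did not overlap, and the log2 change was -0.60 ± 0.15 (SE) with an unadjusted p of 0.00343. Of the 8 listed genes of oligodendrocyte precursors, 7 were tested and all 7 were lower (median -0.43). At an unadjusted p under 0.05 there were 3, against 5.16% of all tested genes in that direction. The 3 were Sox10, Olig1 (a transcription factor of the whole lineage, -0.45 ± 0.17 SE) and Enpp6 (a choline phosphodiesterase of newly formed oligodendrocytes, -0.51 ± 0.19 SE). The median of the precursor list was -0.11 with the thalamus level as a covariate and -0.145 without PBS mice 72 and 84. Pdgfra, the growth factor receptor that defines the precursors, was at 21.9, 15.4, 25.3 and 33.5 CPM in PBS and 18.8, 16.2 and 19.2 CPM in YMP. Its groups overlapped, with a log2 change of -0.43 ± 0.23 (SE) and an unadjusted p of 0.102.

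Markers of a neighbouring tissue differed widely between the PBS libraries and were lower in YMP on average, with overlap. All 8 listed markers of thalamus neurons were lower in YMP (median -1.11), with 4 at an unadjusted p under 0.05, against 5.16% of all tested genes in that direction. Of the 8, 0 were without overlap, against 3.37% of all genes. Their summed level was 824, 174, 518 and 795 CPM in PBS mice 72, 76, 80 and 84 and 187, 197 and 356 CPM in YMP mice 73, 77 and 81. PBS mice 72, 80 and 84 were high, and PBS mouse 76 was below every YMP mouse. Libraries of the thalamus itself held 3280 to 4530 CPM of these 8 genes on plain library totals. Tcf7l2, a transcription factor of thalamic neurons, was at 281, 26.1, 111 and 243 CPM in PBS and 19.4, 29.1 and 108 CPM in YMP (log2 change -1.66 ± 0.80 SE). Slc17a6, the glutamate transporter of thalamic neurons, was at 317, 3.90, 94.9 and 228 CPM in PBS and 59.7, 5.65 and 101 CPM in YMP. The 4 at an unadjusted p under 0.05 were Lef1 (-1.38 ± 0.44 SE), Tnnt1 (-2.31 ± 0.76 SE), Ramp3 (-0.85 ± 0.34 SE) and Rora (-0.84 ± 0.36 SE).

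Across the PBS mice, mouse 72 had the highest and mouse 84 the next highest sum of both the myelin genes and the thalamus markers, while mice 76 and 80 stood in opposite order. PBS mouse 76 had the lowest thalamus sum of the 7 libraries and a myelin sum of 9516 CPM, above all 3 YMP mice. PBS mouse 80 had a thalamus sum above every YMP mouse and the lowest myelin sum of the PBS group. With the thalamus level of each library as a covariate in the edgeR fit, the median log2 change of the myelin list was -0.53 and 9 of its 12 members had an unadjusted p under 0.05. Without PBS mice 72 and 84, the pair with the highest thalamus sums, it was -0.43 with 9 of 12. The thalamus libraries themselves held 8336 to 12079 CPM of the 12 myelin genes on plain library totals, where the anterior hippocampus held 5485 to 12856.5 CPM. The part that unequal dissection plays in the lower myelin level was not tested further.

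**Figure D3:**
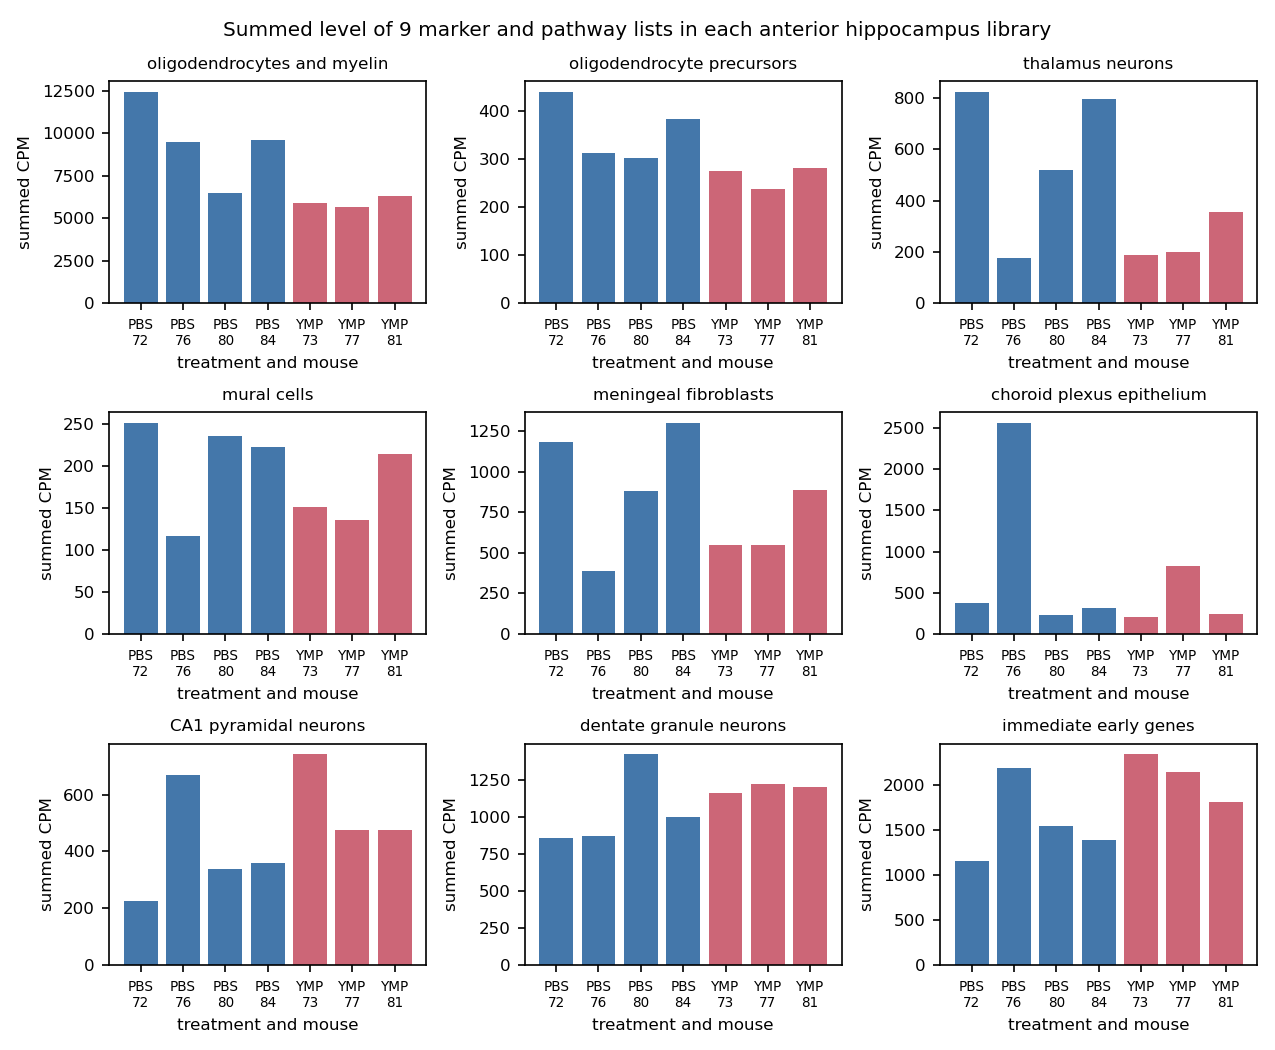
Summed CPM of 9 marker and pathway lists (y axes) in each anterior hippocampus library (x axes, treatment and mouse). The myelin sum is lower in all 3 YMP libraries than in all 4 PBS libraries, whereas PBS mouse 76 has the lowest thalamus sum and the highest choroid plexus sum.

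Genes high in the corpus callosum, and genes high in the thalamus, took a larger share of the lower genes than of all tested genes. In freely fed females, 599 of the 13709 tested genes (4.37%) were at least 2 times as high in the corpus callosum, the large fibre tract between the hemispheres, as in the anterior hippocampus. They made up 155 of the 707 genes lower at an unadjusted p under 0.05 (21.9%) and 6 of the 269 higher (2.23%). Genes at least 2 times as high in the thalamus were 643 (4.69%), and they made up 160 of the 707 lower genes (22.6%) and 0 of the 269 higher. The corpus callosum and thalamus sets shared 112 genes. Genes at least 2 times as high in the choroid plexus were 311 (2.27%), with a median log2 change of -0.40. They made up 61 of the 707 lower genes (8.63%) and 1 of the 269 higher. Their overlap with the corpus callosum set was not examined. The 487 genes high in the corpus callosum but not the thalamus had a median log2 change of -0.28, and for 14.8% of them the YMP libraries lay wholly below the PBS libraries. The 531 genes high in the thalamus but not the corpus callosum had a median of -0.53, but only 4.71% did not overlap in that direction, against 3.37% of all genes. Genes at most 0.5 times as high in the thalamus as in the hippocampus had a median of 0.28, and they were 62 of the 269 higher genes (23.0%). The 12 myelin genes were 2.12 to 3.35 times as high in the corpus callosum as in the anterior hippocampus of these females and 1.005 to 1.55 times as high in the thalamus.

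The 10 lower genes with the smallest p among those of at least 5 CPM were Insc, Itgb4, Serpinb1a, Elovl7, Ugt8a, Prr5l, Bbox1, Cntn2, Ace and Cd82. In each the YMP libraries lay wholly below the PBS libraries, and 9 of the 10, all but Bbox1, were at least 2 times as high in the corpus callosum as in the anterior hippocampus of freely fed females. Insc, an adaptor protein that orients the mitotic spindle (chr7:114743688-114850380), was at 15.2, 13.1, 11.1 and 11.3 CPM in PBS and 5.35, 6.49 and 7.45 CPM in YMP. It had the smallest p of all tested genes, 0.00061 before adjustment, and a log2 change of -0.98 ± 0.19 (SE). Itgb4, an integrin subunit that binds laminin, was at 19.7, 13.5, 17.2 and 19.2 CPM in PBS and 9.91, 8.65 and 10.4 CPM in YMP (-0.86 ± 0.16 SE).

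Among the remaining 8, Elovl7, which lengthens fatty acids, was at 29.8, 28.2, 26.3 and 27.7 CPM in PBS and 17.1, 21.1 and 19.9 CPM in YMP, with little spread among the PBS mice (-0.54 ± 0.11 SE). Cntn2, a contactin that anchors potassium channels beside the nodes of myelinated axons, was at 97.1, 71.3, 62.1 and 110.1 CPM in PBS and 42.4, 46.0 and 52.7 CPM in YMP (-0.88 ± 0.19 SE). Ace, the angiotensin-converting enzyme, was at 8.76, 14.7, 6.06 and 9.48 CPM in PBS and 4.17, 4.45 and 4.197 CPM in YMP (-1.21 ± 0.27 SE). For Cntn2 and Ace the YMP mice were close together and the PBS mice were spread above them. Ace was highest in PBS mouse 76, the library with the highest choroid plexus sum. In freely fed females it was 8.63 times as high in the corpus callosum as in the anterior hippocampus. Serpinb1a, a protease inhibitor, had a log2 change of -0.80 ± 0.16 (SE), Prr5l, a partner of the mTORC complexes, -0.73 ± 0.16 (SE), and the tetraspanin Cd82 -0.55 ± 0.12 (SE). Bbox1, which makes carnitine, had -1.25 ± 0.27 (SE). All 10 genes were higher in the thalamus than in the anterior hippocampus of freely fed females, and Bbox1 was the 1 that was at least 2 times as high there (2.26 times) and the 1 that was not higher in the corpus callosum.

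The 10 higher genes with the smallest p were Tiam2, Zmym1, Vipr1, Slc26a4, Rc3h2, Rbm24, Epc2, Slc39a2, Ccdc74a and Rbm12b1, and they form no group of the lists used here. Tiam2, an activator of the GTPase Rac that shapes the neuronal cytoskeleton (chr17:3326313-3519397), was at 30.2, 41.7, 44.95 and 37.4 CPM in PBS and 56.6, 56.4 and 59.1 CPM in YMP. The 3 YMP mice agreed closely and lay above all PBS mice, with a log2 change of 0.60 ± 0.13 (SE) and an unadjusted p of 0.00162. Vipr1, a receptor for vasoactive intestinal peptide, was at 4.93, 6.65, 5.56 and 4.78 CPM in PBS and 10.4, 8.17 and 9.14 CPM in YMP (0.78 ± 0.19 SE). Slc26a4, the anion exchanger pendrin, was at 7.32, 9.63, 11.6 and 6.86 CPM in PBS and 14.9, 13.6 and 14.1 CPM in YMP (0.75 ± 0.19 SE). All 10 genes were lower in the thalamus than in the anterior hippocampus of freely fed females, and 4 were at most 0.5 times as high there: Vipr1 (0.144 times), Slc26a4 (0.158 times), Tiam2 (0.169 times) and Ccdc74a (0.378 times).

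The remaining 7 had log2 changes under 1. Zmym1 was at 52.5, 61.4, 57.6 and 46.9 CPM in PBS and 68.7, 79.9 and 84.8 CPM in YMP (0.52 ± 0.12 SE). Rc3h2, an RNA-binding protein that shortens the life of messenger RNAs, was at 39.6, 48.4, 39.4 and 40.2 CPM in PBS and 48.9, 63.4 and 60.5 CPM in YMP, so that PBS mouse 76 and YMP mouse 73 nearly met (0.46 ± 0.12 SE). The RNA-binding protein Rbm24 had 0.72 ± 0.19 (SE), the chromatin protein Epc2 0.49 ± 0.14 (SE), the zinc transporter Slc39a2 0.60 ± 0.17 (SE), Ccdc74a 0.43 ± 0.13 (SE) and Rbm12b1 0.90 ± 0.26 (SE).

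The genes with the largest folds were of low level. Among genes with a mean of at least 1 CPM and an unadjusted p under 0.05, the 5 lowest were Ebf2, Irx5, Lhx1os, Lingo4 and Ebf3, with log2 changes from -3.19 to -2.58. Ebf2, a transcription factor, was at 7.91, 0, 1.52 and 5.01 CPM in PBS and 0.130, 0 and 0.948 CPM in YMP. The high libraries were PBS mice 72 and 84, the same that led the thalamus sum, and in freely fed females Ebf2 was 3.21 times as high in the thalamus as in the hippocampus. With the thalamus level as a covariate, the log2 changes of Ebf2, Irx5, Lhx1os and Ebf3 were above 0 (1.58, 0.89, 1.38 and 0.86). The counts carry no strand, so reads of Lhx1os cannot be told from those of the gene on the opposite strand. The 5 highest were Itprid1 (2.17 ± 0.65 SE), Mybpc1 (1.90 ± 0.82 SE), Dtl (1.37 ± 0.57 SE), Grem1 (1.29 ± 0.35 SE) and Dlx5 (1.24 ± 0.51 SE). Grem1, which blocks bone morphogenetic proteins, was at 1.36, 3.21, 2.02 and 2.08 CPM in PBS and 7.04, 3.72 and 4.60 CPM in YMP, without overlap.

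**Figure D4:**
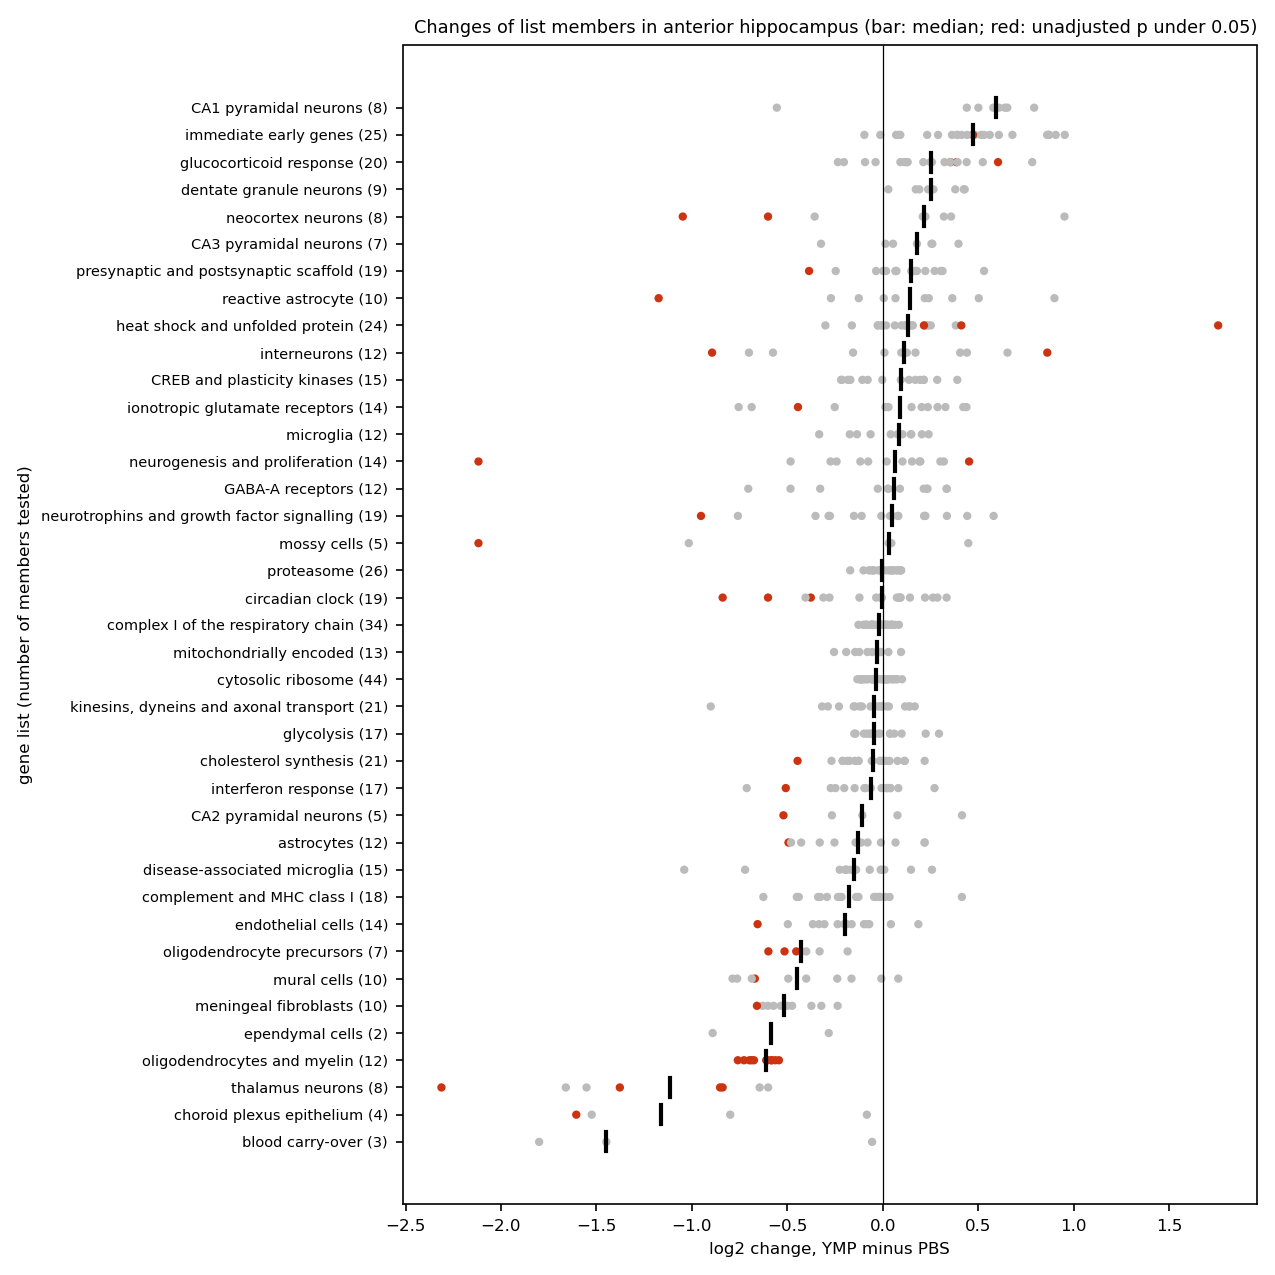
Log2 change of YMP minus PBS (x axis) of every tested member of each gene list (y axis, with the number tested); bars are medians and red points have an unadjusted p under 0.05. The myelin list has all 12 members in red below 0, the thalamus neuron list has a median of -1.11, and the ribosomal and respiratory lists lie close to 0.

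The genes of neuronal activity lay higher in YMP, but the groups overlapped for every member. Of 25 immediate early genes, 23 were above 0 (49.6% of all tested genes were), with a median of 0.47. At an unadjusted p under 0.05, 1 was higher, against 1.96% of all tested genes. That was Ier5, at 40.9, 56.4, 67.2 and 46.2 CPM in PBS and 85.4, 63.6 and 65.7 CPM in YMP (0.47 ± 0.18 SE, unadjusted p 0.0273), with overlap through PBS mouse 80. Arc, an effector at synapses, was at 76.7, 354, 104 and 101 CPM in PBS and 379, 312 and 231 CPM in YMP, a log2 change of 0.95 ± 0.49 (SE). PBS mice 72, 80 and 84 were low and PBS mouse 76 was as high as the YMP mice. Nr4a1 had the same order, with 22.9, 114, 28.3 and 41.3 CPM in PBS and 131, 85.9 and 73.1 CPM in YMP (0.91 ± 0.50 SE), and Junb did too (0.53 ± 0.38 SE). Fos was at 19.8, 24.1, 17.2 and 18.7 CPM in PBS and 22.8, 22.8 and 18.3 CPM in YMP, a log2 change of 0.08 ± 0.14 (SE).

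The summed level of the 25 genes was 1164, 2196, 1548 and 1390.4 CPM in PBS mice 72, 76, 80 and 84 and 2350.4, 2150.03 and 1812 CPM in YMP mice 73, 77 and 81. PBS mouse 76 lay among the YMP mice. With the thalamus level as a covariate the median of the list was 0.03, and without PBS mice 72 and 84 it was 0.05, close to 0 in both cases. Bdnf, the growth factor that neurons release with activity, was at 50.2, 111, 74.7 and 64.4 CPM in PBS and 90.7, 133 and 79.7 CPM in YMP (0.44 ± 0.27 SE). Creb1 was at 32.5, 31.9, 36.9 and 56.6 CPM in PBS and 31.5, 36.0 and 37.8 CPM in YMP (-0.18 ± 0.21 SE). Its groups overlapped, and without PBS mouse 84 its log2 change was 0.07.

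Markers of the hippocampal neurons themselves leaned higher. Of 9 markers of dentate granule neurons, 9 were above 0 (median 0.25) and 0 had an unadjusted p under 0.05. C1ql2, a synapse organiser of these cells, was at 182, 176, 324 and 196 CPM in PBS and 253, 277 and 247 CPM in YMP (0.25 ± 0.20 SE). The 3 YMP mice lay between PBS mouse 80 and the other 3 PBS mice, and the junction protein Dsp showed the same order (0.43 ± 0.25 SE). Of 8 markers of CA1 pyramidal neurons, 7 were above 0 (median 0.59), again with 0 at an unadjusted p under 0.05. Wfs1, a protein of the endoplasmic reticulum abundant in CA1 neurons, was at 48.7, 186, 68.7 and 94.3 CPM in PBS and 192, 149.7 and 114 CPM in YMP (0.61 ± 0.41 SE), with PBS mouse 76 among the YMP mice. The CA1 median was 0.11 with the thalamus level as a covariate and 0.18 without PBS mice 72 and 84. CA3 markers had a median of 0.18, CA2 markers -0.11 and mossy cell markers 0.03. Calb2 (calretinin), which mossy cells and also thalamic neurons make, was at 152, 7.79, 37.9 and 114 CPM in PBS and 9.39, 10.1 and 34.7 CPM in YMP.

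Inhibitory neuron markers had a median of 0.11 over 12 genes. Slc32a1, which loads GABA into vesicles, was at 9.78, 7.10, 5.05 and 14.5 CPM in PBS and 4.95, 4.93 and 5.69 CPM in YMP (-0.89 ± 0.31 SE, unadjusted p 0.0191), with overlap through PBS mouse 80. Synaptic lists had small medians above 0. They were 0.09 for ionotropic glutamate receptors (10 of 14 genes above 0) and 0.06 for GABA-A receptors (8 of 12). For synaptic scaffold proteins the median was 0.15 (16 of 19 above 0), and -0.12 with the thalamus level as a covariate. Dcx, which marks newborn neurons of the dentate gyrus, was at 11.7, 7.10, 6.06 and 13.5 CPM in PBS and 9.26, 5.89 and 10.5 CPM in YMP (-0.24 ± 0.30 SE). The groups overlapped. The neurogenesis and proliferation list, with 14 of 18 genes tested, had a median of 0.06.

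Genes of brain immunity, which are known to be higher with age in the mouse brain, showed no difference larger than the spread of the mice. Of 18 genes of complement and MHC class I, 15 were below 0 (median -0.18) and 0 had an unadjusted p under 0.05. C4b, a complement protein, was at 111, 127, 141 and 91.7 CPM in PBS and 95.3, 94.6 and 148 CPM in YMP (-0.05 ± 0.20 SE). B2m, the light chain of MHC class I, was at 153, 123, 144 and 135 CPM in PBS and 126, 151 and 136 CPM in YMP (-0.01 ± 0.10 SE). The groups overlapped fully for both, and the sign of both changed when single mice were left out. The interferon list had a median of -0.06 and the disease-associated microglia list -0.15. Microglial markers had a median of 0.08 over 12 genes, and their summed level averaged 617 ± 13.6 CPM in the YMP mice (SD, n = 3) and 609.7 ± 87.6 CPM in the PBS mice (SD, n = 4).

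Astrocyte markers were near 0 as a list, with a median of -0.13 over 12 genes (0.12 with the thalamus level as a covariate). S100b, a calcium-binding protein of astrocytes that oligodendrocytes also make, was at 169, 113, 113 and 131 CPM in PBS and 103, 77.4 and 101 CPM in YMP, without overlap (-0.49 ± 0.17 SE, unadjusted p 0.0173). Gfap, the filament protein of reactive astrocytes, was at 709, 825, 1482 and 806 CPM in PBS and 866, 735 and 1394 CPM in YMP, so that 1 mouse of each group stood high (0.07 ± 0.30 SE). Timp2, an inhibitor of matrix proteases that has been studied as a blood-borne factor acting on the hippocampus, was at 425, 129, 197 and 310.2 CPM in PBS and 122, 98.1 and 193 CPM in YMP (-0.95 ± 0.40 SE, unadjusted p 0.041). The transcript measured here is that of the tissue, the high libraries were PBS mice 72 and 84, and the groups overlapped.

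Vessel and border cells leaned lower. The 14 endothelial markers had 12 below 0 (median -0.20), the 10 mural cell markers 9 (median -0.45) and the 10 markers of meningeal fibroblasts 10 (median -0.52). Each list had 1 member lower at an unadjusted p under 0.05, where 5.16% of all tested genes were. The meningeal sum was 1182, 386, 883 and 1300.4 CPM in PBS and 546, 550.1 and 889 CPM in YMP, with PBS mouse 76 lowest. With the thalamus level as a covariate the medians were 0.10 for endothelial cells, 0.29 for mural cells and 0.49 for meningeal fibroblasts, opposite in sign. Choroid plexus RNA differed between single libraries: Ttr (transthyretin), the defining gene of that tissue, was at 0.255, 1395, 0 and 0 CPM in PBS mice 72, 76, 80 and 84 and 0, 376 and 0 CPM in YMP mice 73, 77 and 81. It was therefore high in PBS mouse 76 and YMP mouse 77 and at or near 0 in the others.

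Stress and hormone genes were slightly higher. Of 24 genes of heat shock and the unfolded protein response, 18 were above 0 (median 0.13), and 3 of them had an unadjusted p under 0.05 and no overlap, against 1.96% and 2.68% of all genes. These were Hspa1b, an inducible heat shock protein, and Sdf2l1 and Manf, which are made in the stressed endoplasmic reticulum. Sdf2l1 was at 20.8, 23.8, 18.7 and 15.2 CPM in PBS and 25.0, 24.6 and 28.0 CPM in YMP (0.41 ± 0.16 SE). Manf was at 47.1, 48.6, 43.9 and 40.8 CPM in PBS and 52.1, 49.99 and 54.9 CPM in YMP (0.22 ± 0.09 SE). Hspa1b stayed under 2 CPM in every library. The constitutive chaperone Hspa8 was at 2394, 2736, 2331 and 2270.3 CPM in PBS and 2755, 2726 and 2621 CPM in YMP (0.15 ± 0.10 SE).

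Of 20 genes that glucocorticoids switch on, 16 were above 0 (median 0.25). At an unadjusted p under 0.05, 3 were higher, against 1.96% of all tested genes: Cdkn1a, Ddit4 and Nfkbia. In all 3, YMP mice 77 and 81 were high and YMP mouse 73 lay within the PBS range. Cdkn1a, an inhibitor of the cell cycle, was at 8.59, 10.3, 8.08 and 8.86 CPM in PBS and 8.60, 15.98 and 16.2 CPM in YMP (0.60 ± 0.23 SE). Sgk1, a kinase induced by the same hormones, was at 94.8, 169.8, 94.9 and 107 CPM in PBS and 85.9, 250.4 and 265 CPM in YMP, with YMP mouse 73 below every PBS mouse and the other YMP mice above them. Fkbp5, a chaperone of the glucocorticoid receptor, was at 51.2, 88.2, 91.4 and 65.1 CPM in PBS and 80.8, 96.8 and 94.8 CPM in YMP (0.32 ± 0.19 SE). Without PBS mice 72 and 84 the median of the list was 0.18.

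Lists of basic cell machinery lay close to 0. The medians were -0.035 for 44 genes of the cytosolic ribosome, -0.02 for 34 genes of respiratory complex I, -0.03 for 13 mitochondrially encoded genes, -0.05 for 17 genes of glycolysis and -0.05 for 21 genes of cholesterol synthesis. For 26 proteasome genes it was -0.0013. Of the 19 clock genes 3 were lower at an unadjusted p under 0.05, against 5.16% of all tested genes, and their median was -0.0045. Bhlhe41, a repressor of the clock, was at 78.6, 65.8, 72.2 and 101 CPM in PBS and 55.4, 59.8 and 69.5 CPM in YMP (-0.38 ± 0.15 SE), with overlap.

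The posterior hippocampus of the same mice was fitted in the same way to see whether the anterior pattern recurs. PBS mouse 72 was not analysed there, so 3 YMP mice stood against 3 PBS mice, and 0 of 13857 genes were called by edgeR or by DESeq2 (0%), with 275 at an unadjusted p under 0.05 (1.98%). The myelin list pointed the other way: 11 of its 12 genes were above 0 in the posterior part (median 0.17), with 0 at an unadjusted p under 0.05. On plain library totals the summed level was 2757, 4124 and 2635 CPM in PBS mice 76, 80 and 84 and 4813, 3126 and 3059 CPM in YMP mice 73, 77 and 81, and the groups overlapped. The difference of the plasma effect, anterior minus posterior, was below 0 for 12 of 12 myelin genes (median -0.79). It had an unadjusted p under 0.05 for 10 of the 12, against 4.16% of all genes, and for 3 of the 12 with the mouse as a block, against 3.83%. Over all 14133 genes 0 differences were called by edgeR either way, with 588 at an unadjusted p under 0.05 and 541 with the block. The count of 10 rested on single mice: it was 0 without YMP mouse 73, 1 without PBS mouse 76 or without PBS mouse 84, and 5 without YMP mouse 77 or without PBS mouse 72. For Ugt8a the difference was -0.84 ± 0.27 (SE, unadjusted p 0.00788; with the block -0.73 ± 0.27, p 0.0257).

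The medians of some other lists also had opposite signs in the anterior and posterior parts, while those of others kept their sign. Complement and MHC class I genes were above 0 for 18 of 18 in the posterior part (median 0.40), with 9 at an unadjusted p under 0.05 against 1.28% of all genes, where the anterior median was -0.18. The difference had an unadjusted p under 0.05 for 8 of 18, and for 3 of 18 with the mouse as a block. Meningeal fibroblast markers were above 0 for 10 of 10 (median 1.47, against -0.52 in the anterior part), with 5 higher at an unadjusted p under 0.05. Their difference had an unadjusted p under 0.05 for 5 of 10, both without and with the block. CA1 markers were below 0 for 8 of 8 (median -0.42, against 0.59), with 1 lower at an unadjusted p under 0.05, against 0.707% of all genes. Their difference had an unadjusted p under 0.05 for 1 of 8, and for 4 of 8 with the block. Immediate early genes had a posterior median of 0.08, of the same sign as the anterior one, and their difference had an unadjusted p under 0.05 for 0 of 25, and for 6 with the block. Glucocorticoid genes were above 0 for 17 of 20 (median 0.33), with 7 higher at an unadjusted p under 0.05, against 1.28% of all genes. Their difference reached that p for 0 of 20, and for 3 with the block. Heat shock and unfolded protein genes were above 0 for 21 of 24 (median 0.15), with 4 higher at that p. Their difference reached it for 0 of 24 in both fits. The 3 genes with the smallest p for the difference were Slc12a7, Gusb and Sfrp4. Slc12a7, a potassium-chloride cotransporter, was at 5.27, 5.73, 4.55 and 4.78 CPM in anterior PBS libraries and 2.48, 3.24 and 3.79 CPM in anterior YMP libraries, a log2 change of -0.67 ± 0.22 (SE), against 0.82 in the posterior part. Gusb, a lysosomal enzyme, had log2 changes of -0.41 and 0.29, and Sfrp4, a secreted modulator of Wnt signals, -0.80 and 1.30. None of these differences passed the correction.

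The entorhinal cortex, which sends the main cortical input to the hippocampus, gave 0 called genes of 13687 by edgeR (0%), with 332 lower at an unadjusted p under 0.05 (2.43%). Its myelin list was below 0 for 12 of 12 (median -0.53) with 0 at an unadjusted p under 0.05. On plain library totals PBS mouse 72 stood at 3883 CPM there and the other 6 mice between 903 and 1626 CPM. The difference of the plasma effect, anterior hippocampus minus entorhinal cortex, had a median of -0.12 over the myelin list, with 9 of 12 below 0. With the mouse as a block the median was -0.37, with 12 of 12 below 0. In both fits 0 of 12 had an unadjusted p under 0.05. Immediate early genes had a median of -0.19 in the entorhinal cortex, and the difference had an unadjusted p under 0.05 for 0 of 25, or for 1 with the block. The 3 genes with the smallest p for the difference were Efcc1, Mmp15 and Sema4d. Mmp15, a membrane-bound matrix protease, was at 15.7, 8.02, 8.08 and 14.7 CPM in anterior PBS libraries and 4.95, 5.89 and 5.62 CPM in anterior YMP libraries, without overlap (-1.15 ± 0.27 SE). Sema4d, a semaphorin that oligodendrocytes make, was at 67.0, 63.0, 57.1 and 60.2 CPM in PBS and 50.1, 50.6 and 53.4 CPM in YMP (-0.27 ± 0.09 SE). Of 14121 genes, 0 differences were called, with 673 at an unadjusted p under 0.05 (4.77%) and 993 with the block (7.03%).

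Across the 15 brain regions of the plasma experiment, each fitted alone, the lower myelin level of the anterior hippocampus was not general. The median of the 12 genes was below 0 in 7 regions and above 0 in 8. The lowest medians were those of the caudate putamen (-0.92, 12 of 12 lower at an unadjusted p under 0.05, against 6.68% of all genes there), the anterior hippocampus (-0.61, 12 of 12) and the entorhinal cortex (-0.53, 0 of 12). The highest were those of the corpus callosum (0.40), from 2 YMP and 3 PBS mice, and the cerebellum (0.35). In the corpus callosum 8 of 12 were higher at an unadjusted p under 0.05, against 2.15% of all genes there, and in the cerebellum 5 of 12, against 5.07%. On plain library totals the summed level in the corpus callosum was 18719, 20106 and 17219.8 CPM in PBS mice 76, 80 and 84 and 27273 and 26000.4 CPM in YMP mice 77 and 81. The choroid plexus sum of these libraries was 29963, 20236 and 7800 CPM in the PBS mice and 578 and 650 CPM in the YMP mice. In the caudate putamen PBS mouse 76 had a myelin sum of 29946.5 CPM (12172.5 to 15338 CPM in the other PBS mice) and a choroid plexus sum of 6719 CPM. What these choroid plexus levels mean for the myelin medians was not tested. The regions share the mice, and differences between regions other than those given above were not tested. The median of the immediate early genes was higher in the anterior hippocampus than in the other 14 regions, and it was above 0 in 12 of 15. The anterior median came close to 0 with the thalamus level as a covariate, as given above. The next highest medians were those of the choroid plexus (0.34), the visual cortex (0.32) and the hypothalamus (0.30). In the choroid plexus, YMP mouse 73 had a choroid plexus sum of only 393 CPM on plain library totals. The other YMP mice, 77 and 81, had 21946 and 11122 CPM there.

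**Figure D5:**
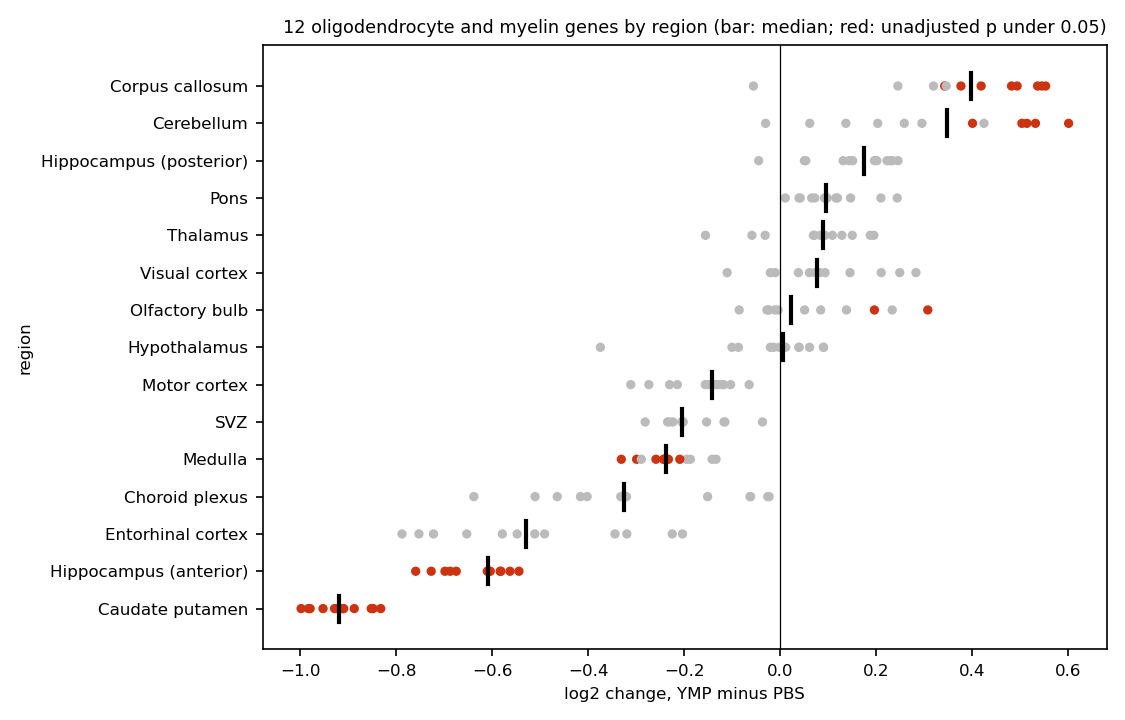
Log2 change of YMP minus PBS (x axis) of the 12 oligodendrocyte and myelin genes in each of the 15 brain regions (y axis); bars are medians and red points have an unadjusted p under 0.05. The caudate putamen and the anterior hippocampus have all 12 points in red below 0, and the corpus callosum and cerebellum have medians above 0.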

How the data were processed

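Per the labels, total RNA was taken from tissue homogenate on RNeasy columns, copied to cDNA by Smart-Seq2 and turned into unstranded libraries with Nextera XT. The authors deposited a single table of raw counts (whole numbers, 21076 gene rows). The submitters' processing notes name Trim Galore 0.3.7, STAR 2.5.3a, DESeq2 and the build GRCm38. The program that counted reads and its annotation are not given in the sources used here. Genes with near-identical copies or a partner on the opposite strand are uncertain.

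The counts of the 7 libraries were fitted in R 4.3.3 with edgeR 4.0.16 (quasi-likelihood F test) after filterByExpr (minimum count 10, minimum total 15) and TMM normalisation, with treatment as the only term. P-values were adjusted by Benjamini-Hochberg over the 13709 genes tested and called at 0.05. SEs were derived from the log2 change and its F statistic. CPM were computed on TMM-scaled library sizes unless plain totals are named. DESeq2 1.42.0, RLE size factors, other filters, a fit of 13 hippocampal libraries and leaving out each mouse were alternatives. The thalamus covariate (log2 summed marker level on plain library totals) and the fit without PBS mice 72 and 84 were added after the marker levels had been seen. Differences between regions were tested as an interaction, without and with the mouse as a block. A mouse number stands for 1 animal in all its regions and therefore pairs libraries. Deviations from group means of the same mouse correlated at -0.0995 to 0.464 (6 mice) between anterior and posterior hippocampus and at 0.0457 to 0.204 (7 mice) with the entorhinal cortex. The scripts were tested on simulated counts.

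The 39 gene lists and their members were chosen with earlier results of these data known, and 2 genes of the oligodendrocyte and myelin list are not reported here. They were left out without regard to their values, and every count, sum and median of that list covers the other 12. Named genes are the 10 of smallest p in each direction with a mean of at least 5 CPM, the 5 of largest fold in each direction at an unadjusted p under 0.05 with at least 1 CPM, the member of smallest p and the most abundant member of each list as far as they are described, the 3 of smallest p for each regional difference, and 12 genes fixed by name (Creb1, B2m, Timp2, Dcx, Fos, Arc, Bdnf, Gfap, C4b, Ttr, Hspa8 and Fkbp5). Other list members were picked after their values were seen. Regional ratios used the mean CPM, on plain library totals, of 3 (corpus callosum) or 4 freely fed females per region with 1 CPM added. Lists were described by counts and medians, with no test. Coordinates and promoters are from RefSeq (GRCm38.p6), in which 20267 of 21076 symbols (96.2%) matched. Replicate libraries differed beyond sampling noise (chi-square per degree of freedom 5.49 to 32.3). A count of 3, taken as the floor, was 0.203 to 1.52 CPM, which covers counting error only, since PCR reads carried no molecular identifiers.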

Additional observations from a re-analysis of the deposited data

Results flagged for a closer look

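In the PBS group of 4, a library was singled out where its gap to the nearest other library took a larger part of the whole range than Dixon's limit allows, which chance does for about 1 in 20 groups. Of 134 genes, list sums and library measures examined, 12 were singled out, where chance would give about 6.7. These groups are not independent, since list sums hold genes that were also examined alone, such as Ttr in the choroid plexus sum. Many of the genes had also been named for their values, so 12 against 6.7 is no test. Of the 12, 7 were in PBS mouse 76, 4 in PBS mouse 80 and 1 in PBS mouse 84.

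PBS mouse 76 stood apart in markers of the brain's ventricles, in the activity gene Arc and in some other genes. Its choroid plexus sum was 2560.1 CPM against 230.3 to 377 in the other 3 PBS mice, Ttr was at 1395 CPM against 0 to 0.255, and the ependymal sum was 55.0 CPM against 18.2 to 22.9. Arc was at 354 CPM against 76.7 to 104, Sgk1 at 169.8 CPM against 94.8 to 107, Rc3h2 at 48.4 CPM against 39.4 to 40.2, and Bbox1 at 4.58 CPM against 7.58 to 8.17.

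PBS mouse 80, the smallest library, had Gfap at 1482 CPM against 709 to 825, a reactive astrocyte sum of 1648 CPM against 847 to 974, C1ql2 at 324 CPM against 176 to 196, and a mossy cell sum of 138 CPM against 219.6 to 229. PBS mouse 84 had a blood sum of 42.7 CPM against 2.52 to 7.997.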

How the results depend on the processing

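No gene was called in the anterior hippocampus under any of the 14 alternatives run. The smallest adjusted p was 0.0901 in edgeR without PBS mouse 76, and DESeq2 gave 0.203. The number of genes at an unadjusted p under 0.05 (976) ran from 468 to 2761 when single mice were left out, and was 503 with the thalamus level as a covariate and 231 without PBS mice 72 and 84. The same runs gave the myelin list a median of -0.72 to -0.49 for single mice left out, with 8 to 12 members at an unadjusted p under 0.05. Leaving out single mice gave 0 to 1 called genes for the difference anterior minus posterior, the 1 without YMP mouse 77. With the mouse as a block, which pairs the regions of 1 animal, 0 differences were called for either pair of regions, as without it, and the block moved the myelin genes at an unadjusted p under 0.05 (anterior minus posterior) from 10 to 3.

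Of 91 genes named, 77 kept their direction under every alternative and 14 did not. With the thalamus level as a covariate the log2 changes turned to 1.58 for Ebf2, 0.89 for Irx5, 1.38 for Lhx1os, 0.86 for Ebf3, 0.26 for Tcf7l2, 0.34 for Calb2, 1.68 for Slc17a6, 0.21 for Dcx, 0.082 for B2m, 0.041 for Creb1, -0.12 for Fos and -0.10 for Junb. Without PBS mice 72 and 84 they turned to 0.043 for Ebf3, 0.39 for Slc17a6, 0.37 for Dcx, 0.055 for B2m, 0.054 for Creb1 and -0.20 for Gfap. With single mice left out the range was -0.30 to 0.065 for C4b, -0.084 to 0.047 for B2m, -0.28 to 0.068 for Creb1 and -0.25 to 0.36 for Gfap. The cause of these turns was not tested. PBS mouse 80, at 1.96 M counts, limits the precision of genes near 1 CPM.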

Other observations

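Single members of lists that as a whole lay near 0 were lower in YMP at an unadjusted p under 0.05 in edgeR, each being the member of smallest p in its list. Pcp4, a calmodulin-binding peptide high in CA2 neurons, was at 197, 138, 217 and 229.6 CPM in PBS mice 72, 76, 80 and 84 and 114, 159 and 135 CPM in YMP mice 73, 77 and 81 (log2 change -0.52 ± 0.18 SE). Grin2d, a subunit of NMDA-type glutamate receptors, was at 14.8, 11.9, 15.7 and 16.96 CPM in PBS and 11.5, 9.73 and 11.6 CPM in YMP, without overlap (-0.44 ± 0.16 SE). Ifit2, an interferon-induced gene, was at 21.6, 13.5, 14.1 and 18.7 CPM in PBS and 9.78, 12.5 and 14.3 CPM in YMP (-0.51 ± 0.20 SE). YMP mouse 77 lay above PBS mouse 76 for Pcp4, YMP mouse 81 above PBS mice 76 and 80 for Ifit2.

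Genes of low level in other lists were lower as well. Otx2, a transcription factor on the choroid plexus list, was at 9.36, 4.81, 6.06 and 12.4 CPM in PBS and 0.391, 1.20 and 6.09 CPM in YMP (-1.61 ± 0.69 SE), with overlap through YMP mouse 81. Its level did not follow that of Ttr: PBS mouse 76, with Ttr at 1395 CPM, had the lowest Otx2 of the PBS mice. The reactive astrocyte list had 7 of its 10 tested genes above 0 (median 0.14). Its member Emp1, a membrane protein, went the other way, at 2.04, 2.75, 2.53 and 2.24 CPM in PBS and 0.652, 0.481 and 1.69 CPM in YMP, without overlap (-1.17 ± 0.43 SE). None of these passed the correction over 13709 genes (edgeR adjusted p 0.683 for each).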
